A study of Mus musculus with 8 samples.

Results

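Small leucine-rich proteoglycans are secreted matrix proteins built from leucine-rich repeats, and 10 genes of the family were followed: Dcn (decorin), Bgn (biglycan), Aspn (asporin), Ecm2, Fmod (fibromodulin), Lum (lumican), Prelp, Omd (osteomodulin), Ogn (osteoglycin, or mimecan) and Podn (podocan). They were taken by symbol from a table of 24630 genes, and all 10 were found. Messenger RNA had been sequenced from muscle stem cells, also called satellite cells, taken from C57BL/6 males. The young group held 4 mice of 4 months and the old group 4 mice of 22 months, each mouse giving 1 library. The cells came from limb muscles and had been sorted without culture for VCAM and against CD45, CD31 and Sca1, and the animals carried no transgene or treatment that the labels name.

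The proteins of this family bind collagen fibrils and set their thickness and spacing. Several carry chondroitin or dermatan sulfate chains (decorin, biglycan) or keratan sulfate chains (fibromodulin, lumican), and some also hold growth factors such as TGF-beta or act on receptors at the cell surface. In skeletal muscle they are known from the connective tissue around fibres and from tendon, where fibroblasts and tenocytes make most of them.

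Values are RPKM on library totals, reads scaled by gene length and by the reads in all genes of the library, so that a difference is a difference in the share of reads. Values in the deposited scaling, where all tested genes had a median log2 fold change of 0.64 in place of -0.01, are named as deposited. Which of the scalings is nearer to the RNA content of the cells was not settled here. Fold changes are old minus young on log2(RPKM + 1) from limma, with the standard error and p-values adjusted by Benjamini-Hochberg over 5703 genes, those whose deposited RPKM averaged 5 or more. Against library totals, deposited values are raised in old and lowered in young libraries, so genes higher in old passed this filter more easily. The young libraries held 1909115 to 6546373 reads in genes and the old libraries 20041424 to 24822655, so depth and age cannot be told apart. Of the markers of the cells, old and young means were 10.7 ± 2.48 and 17.7 ± 3.51 RPKM for Pax7, and 473 ± 112 and 275 ± 76.2 for Vcam1, which the sort used (SD, n = 4 each). All 15 muscle stem cell markers were tested, with 2 higher, 6 lower and 7 not called on library totals (median -0.34), and 6 higher and 1 lower as deposited. Vcam1 (0.79 ± 0.20) and the myogenic regulator Myod1 (0.78 ± 0.16) rose, and Calcr (-1.53 ± 0.16), Fgfr4 (-0.86 ± 0.10) and Cdh15 (-0.86 ± 0.16) had the lowest values, of which Calcr was also lower as deposited (-0.85).

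Fmod, Dcn and Ogn rose in old muscle stem cells, Fmod by 1.77 ± 0.30, Dcn by 0.86 ± 0.23 and Ogn by 0.73 ± 0.23 in log2 units, with adjusted p-values of 0.00263, 0.0198 and 0.0377 from limma. These are 3 of the 8 members that passed the filter on low values. None was called lower (0 of 8), and 5 were not called. Among all tested genes 12.3% were called higher and 12.7% lower on library totals. Prelp (0.51 ± 0.22) and Aspn (0.64 ± 0.28) lay above 0 without a call, Ecm2 (0.08 ± 0.21) and Bgn (0.01 ± 0.14) near 0, and Lum (-0.44 ± 0.25) below 0. Omd and Podn, with means of 3.89 and 0.657 deposited RPKM, did not pass the filter. In cells measured in bulk, more cells of a type and more RNA per cell cannot be told apart.

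On the deposited scale 7 of the 8 tested members were called higher and 0 lower, Lum being the exception (0.24 ± 0.21, limma adjusted p = 0.315). There 68.1% of all tested genes were called higher and 1.12% lower. Old and young values did not overlap, with old higher, for 6 tested members (Dcn, Bgn, Fmod, Ogn, Prelp and Aspn) and for 61.2% of all tested genes as deposited, and 0.473% of genes were lower without overlap. The median over the tested members was 1.26 as deposited against 0.64 over all tested genes, and 0.58 on library totals against -0.01. Only the calls of Fmod, Dcn and Ogn hold on both scalings.

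**Figure D1:**
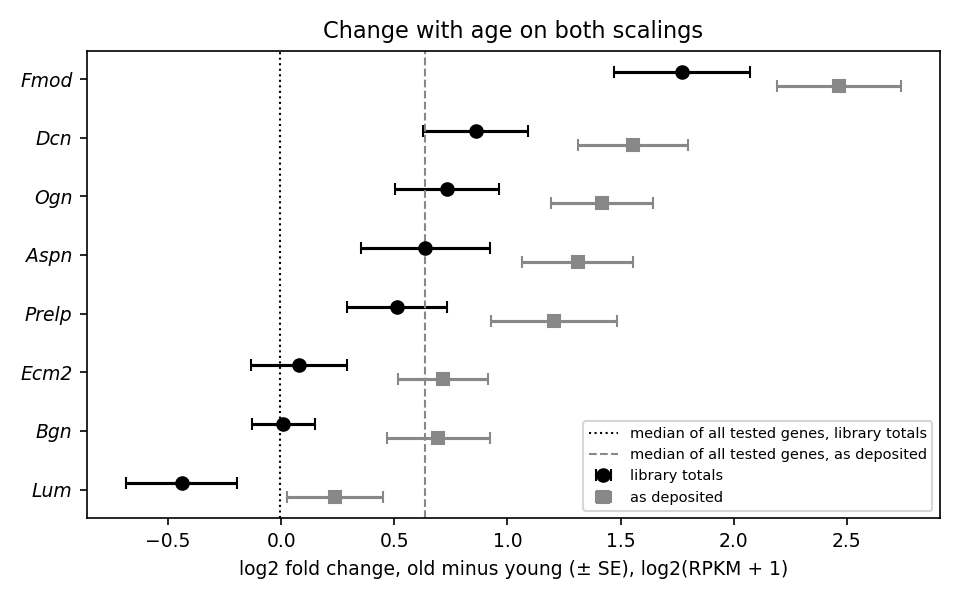
Log2 fold change of the 8 tested members, old minus young, with its standard error, on library totals (circles) and as deposited (squares), with the median of all tested genes on each scaling as a vertical line. Fmod stands farthest to the right on both scalings (1.77 and 2.46), while Bgn (0.01 and 0.69) stands close to the median of all genes on both.

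The calls of Dcn and Ogn each depended on several single libraries. Leaving out young library 1, young library 4, old library 1 or old library 4 took the call from both, with adjusted p-values of 0.0505 to 0.0633 for Dcn and 0.0681 to 0.0802 for Ogn, so that Fmod alone (1 of 8) was called. Ogn also lost its call without young library 3 (limma, adjusted p = 0.104) and without a filter on low values (0.0599). Without the 2 shallowest libraries, young libraries 1 and 2, Dcn had 0.87 with an adjusted p of 0.0762, and 2 members (Fmod and Ogn) were called higher. Fmod kept an adjusted p of at most 0.0155 in the 19 alternatives that were run.

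Sequence of the family members was looked at where they begin. The 250 bases before the RefSeq start (GRCm38.p6) are shown for Fmod and Ogn, which rose, for Aspn, the neighbour of Ogn, and for Bgn, which stayed near 0. They are given 5′ to 3′ on the strand of the gene, all on the plus strand, at chr1:134037004-134037253 (Fmod), chr13:49607765-49608014 (Ogn), chr13:49544193-49544442 (Aspn) and chrX:73483351-73483600 (Bgn). Capitals mark matches to the TATA box (TATAAA), the CCAAT box, the GC box (GGGCGG), an AP-1 motif (TGANTCA) and an E-box (CAGCTG) on either strand, where overlapping matches run together.
Fmod: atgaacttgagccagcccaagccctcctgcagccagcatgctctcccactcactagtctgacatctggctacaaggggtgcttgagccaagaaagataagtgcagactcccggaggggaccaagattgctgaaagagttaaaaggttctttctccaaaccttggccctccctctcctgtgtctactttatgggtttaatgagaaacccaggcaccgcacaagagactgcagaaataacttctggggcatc
Ogn: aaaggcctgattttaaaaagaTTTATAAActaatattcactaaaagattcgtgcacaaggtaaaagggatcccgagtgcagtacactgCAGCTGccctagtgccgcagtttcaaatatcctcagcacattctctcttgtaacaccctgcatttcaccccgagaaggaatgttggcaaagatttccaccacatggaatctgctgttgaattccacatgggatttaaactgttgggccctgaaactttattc
Aspn: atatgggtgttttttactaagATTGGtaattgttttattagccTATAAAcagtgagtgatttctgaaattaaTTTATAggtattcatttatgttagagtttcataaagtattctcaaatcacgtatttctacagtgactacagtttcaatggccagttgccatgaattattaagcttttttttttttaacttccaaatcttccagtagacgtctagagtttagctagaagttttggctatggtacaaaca
Bgn: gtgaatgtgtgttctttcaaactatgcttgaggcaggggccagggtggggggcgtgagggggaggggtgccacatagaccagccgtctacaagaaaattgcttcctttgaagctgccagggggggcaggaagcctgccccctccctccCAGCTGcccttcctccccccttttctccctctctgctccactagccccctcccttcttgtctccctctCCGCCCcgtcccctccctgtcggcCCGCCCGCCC

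The Fmod stretch held none of the 5 motifs. Ogn and Aspn each held TATAAA on both strands, 227 and 229 bases before the start in Ogn and 178 and 207 in Aspn, and Ogn also held CAGCTG and Aspn CCAAT. Bgn held GGGCGG 3 times within the last 34 bases and CAGCTG once. Its stretch had 64.4% G and C, against 51.2% in Fmod, 42% in Ogn and 30% in Aspn. Of 27025 genes with such a stretch, 13.0% held TATAAA, 34.5% CCAAT, 32.9% GGGCGG, 6.87% TGANTCA and 12.8% CAGCTG. A match is a description of the letters, and 8 of the 10 members had a stretch in the table used.

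Decorin binds collagen fibrils and TGF-beta and carries a chondroitin or dermatan sulfate chain. Dcn (ENSMUSG00000019929.16, chromosome 10, 97479609 to 97518143, plus strand, 9 exons after merging of transcripts, GENCODE M21 on GRCm38) had 393, 524, 514 and 394 RPKM in young libraries 1 to 4. Old libraries 1 to 4 had 1069, 477, 933 and 954 RPKM. Old library 2 lay within the young values and the other 3 old libraries above all of them, so that the groups overlapped. The means were 858 ± 261 in old and 456 ± 72.9 in young animals (SD, n = 4), a ratio of 1.88. Dcn was read 24683 to 44632 times in each old and 2086 to 7010 times in each young library.

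Biglycan is the closest relative of decorin and is known to bind collagen, components of the dystrophin complex and Toll-like receptors. Bgn (ENSMUSG00000031375.17, chromosome X, 73483602 to 73495933, plus strand) had 62.6, 61.2, 72.5 and 82.7 RPKM in young libraries 1 to 4. In old libraries 1 to 4 it had 81.0, 62.5, 76.6 and 60.8 RPKM. The groups covered nearly the same range, with means of 70.3 ± 10.1 in old and 69.8 ± 9.96 in young animals (SD, n = 4) and limma gave 0.01 ± 0.14 (adjusted p = 0.968). The ratio of Dcn to Bgn was 7.63 to 15.7 in old and 4.76 to 8.56 in young libraries. A ratio within a library does not depend on the scaling, and these ranges overlapped.

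Asporin is a relative of decorin that carries no glycosaminoglycan chain and binds collagen and TGF-beta. Aspn (ENSMUSG00000021388.14, chromosome 13, 49544443 to 49567565, plus strand) had 34.9, 27.6, 24.8 and 23.8 RPKM in young libraries 1 to 4. The old libraries, 1 to 4, had 61.6, 20.8, 54.9 and 49.4 RPKM. Of the old libraries 3 stood above every young library, and old library 2 stood below them all. Aspn was not called (0.64 ± 0.28, limma adjusted p = 0.122). Without old library 2 it was called higher (0.98, adjusted p = 0.00316), and 4 members were then called higher.

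Ecm2 encodes a matrix protein with leucine-rich repeats of the decorin type. Ecm2 (ENSMUSG00000043631.8, chromosome 13, 49504810 to 49532789, plus strand) had 10.0, 12.4, 13.2 and 9.79 RPKM in young libraries 1 to 4. Old libraries 1 to 4 had 18.6, 7.64, 11.98 and 11.8 RPKM. Old library 1 was above and old library 2 below all young values. Limma gave 0.08 ± 0.21 (adjusted p = 0.813), and -0.12 without old library 1.

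**Figure D2:**
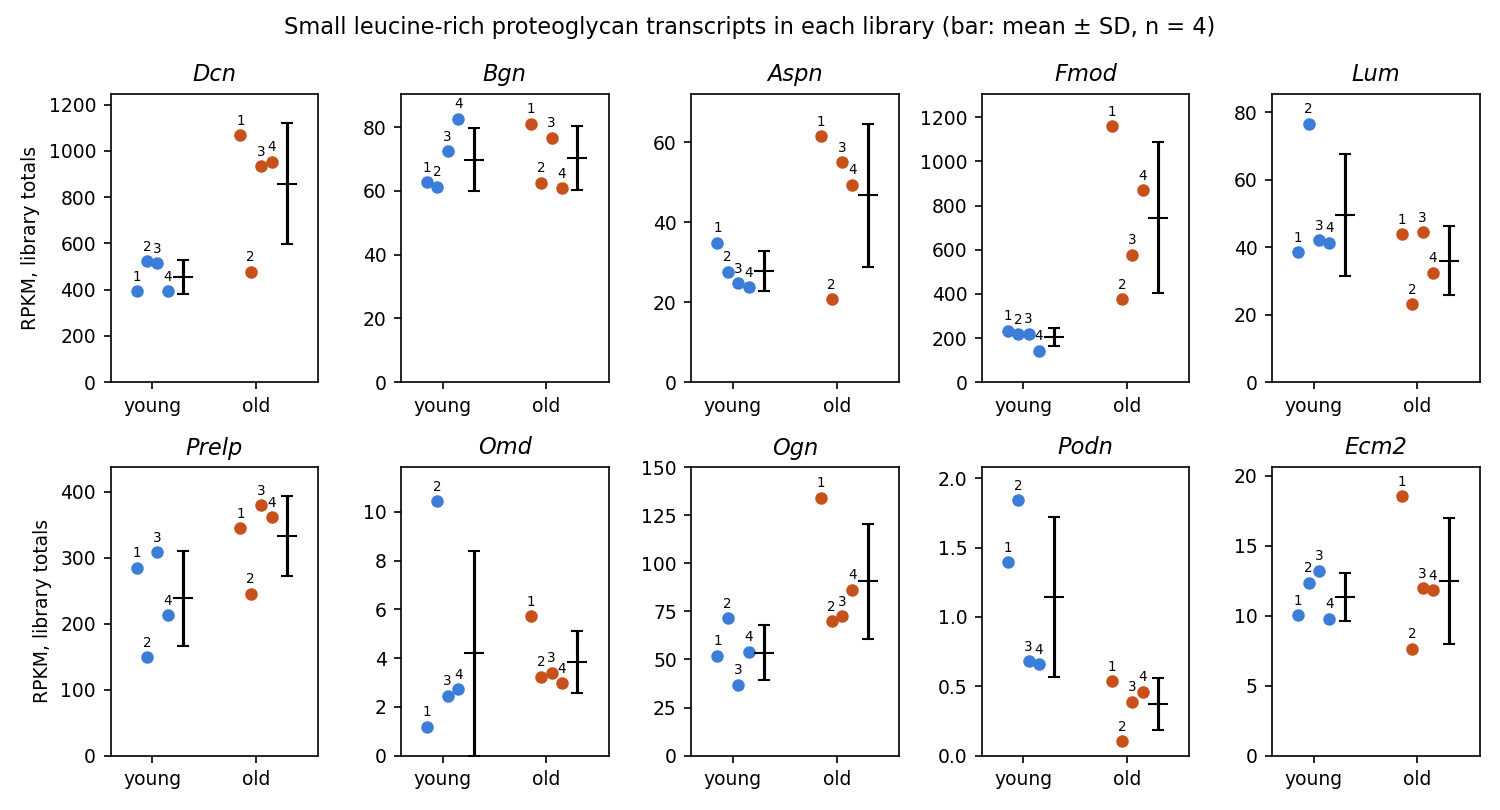
RPKM on library totals of the 10 members in each of the 8 libraries, with the library number beside each point and the mean ± SD (n = 4) at its right. The old values of Fmod (376 to 1160) lie above all young values (143 to 233), and old library 2 is the lowest old library for Dcn, Fmod, Prelp, Aspn, Ecm2, Lum, Ogn and Podn.

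Fibromodulin carries keratan sulfate, binds collagen and is abundant in tendon. Fmod (ENSMUSG00000041559.7, chromosome 1, 134037254 to 134048277, plus strand, 3 merged exons) had 233, 218, 219 and 143 RPKM in young libraries 1 to 4. In old libraries 1 to 4 it had 1160, 376, 577 and 869 RPKM. Every old library exceeded every young one, which on library totals held in this direction for 1 of the 8 tested members and for 13.8% of all tested genes. The means were 745 ± 343 in old and 203 ± 40.5 in young animals (SD, n = 4), a ratio of 3.67. Among the 5703 tested genes Fmod ranked 12 from the top by log2 fold change. The 4 old libraries spread more widely, with a coefficient of variation of 46.0% against 19.9% in young.

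Lumican is a keratan sulfate proteoglycan that shares its collagen binding site with fibromodulin. Lum (ENSMUSG00000036446.5, chromosome 10, 97565128 to 97572703, plus strand) had 38.5, 76.5, 42.0 and 41.3 RPKM in young libraries 1 to 4. The old libraries, 1 to 4, had 43.8, 23.1, 44.4 and 32.4 RPKM. Young library 2 was highest and old library 2 lowest, and the other 6 libraries ran from 32.4 to 44.4 RPKM. Lum was called on neither scaling (-0.44 ± 0.25 on library totals, limma adjusted p = 0.210). The ratio of Fmod to Lum was 13.0 to 26.8 in old and 2.84 to 6.04 in young libraries. The ratio of Dcn to Lum was 20.6 to 29.5 in old and 6.85 to 12.2 in young libraries, with no overlap. The pairs set in ratio were chosen after the values were seen, and the ratios were not tested.

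Prelp encodes prolargin, which binds collagen and the heparan sulfate of basement membranes. Prelp (ENSMUSG00000041577.5, chromosome 1, 133910304 to 133921414, minus strand) had 284, 149, 308 and 213 RPKM in young libraries 1 to 4. Old libraries 1 to 4 had 344, 245, 380 and 361 RPKM. The groups overlapped through old library 2, and 0.51 ± 0.22 was not called (adjusted p = 0.114 from limma). The ratio of Fmod to Prelp was 1.52 to 3.37 in old and 0.672 to 1.46 in young libraries. Prelp shares 350 bases of exon with Gm15851 on the opposite strand, and reads of overlapping genes cannot be told apart without strand.

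Osteomodulin is a keratan sulfate proteoglycan of bone. Omd (ENSMUSG00000048368.9, chromosome 13, 49582462 to 49592822, plus strand) had 5, 31, 25 and 24 reads in young libraries 1 to 4, or 1.19, 10.4, 2.45 and 2.71 RPKM. In old libraries 1 to 4 it had 178, 125, 121 and 96 reads, or 5.71, 3.24, 3.40 and 2.97 RPKM. With 5 reads an exact Poisson interval at 95% runs from 1.62 to 11.7 reads, for counting error only. With the filter lowered to 1 RPKM, limma gave Omd 0.16 ± 0.41 (adjusted p = 0.793), where 7.27% of 11096 genes were called higher and 22.3% lower.

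Osteoglycin is a small keratan sulfate proteoglycan also named mimecan. Ogn (ENSMUSG00000021390.6, chromosome 13, 49608046 to 49624501, plus strand) had 51.9, 71.6, 36.8 and 54.0 RPKM in young libraries 1 to 4. The old libraries, 1 to 4, had 134, 69.9, 72.4 and 86.2 RPKM. Old library 1 was far above the rest, and old library 2 lay below young library 2. The means were 90.6 ± 29.8 in old and 53.6 ± 14.2 in young animals (SD, n = 4), a ratio of 1.69.

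Podocan is a collagen-binding member known from vascular smooth muscle. Podn (ENSMUSG00000028600.15, chromosome 4, 108014791 to 108096445, minus strand) had 16, 15, 19 and 16 reads in young libraries 1 to 4, or 1.39, 1.84, 0.680 and 0.659 RPKM. Old libraries 1 to 4 had 46, 11, 38 and 41 reads, or 0.538, 0.104, 0.390 and 0.462 RPKM. The old values lay below the young ones on library totals and overlapped them as deposited. On library totals 13.4% of all tested genes were lower without overlap, but those genes average 5 RPKM or more. The share among genes as low as Podn was not computed. Podn was not tested. A fit with no filter gave it -0.61 with an adjusted p of 0.0552 (limma), and that fit called 8836 of 24630 genes lower.

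In young animals the members stood in the order Dcn, Prelp, Fmod, Bgn, Ogn, Lum, Aspn, Ecm2, Omd and Podn by mean RPKM, a level per kilobase. The ranges of Prelp and Fmod, of Bgn and Ogn, of Ogn and Lum, of Ecm2 and Omd, and of Omd and Podn overlapped. In old animals the order was Dcn, Fmod, Prelp, Ogn, Bgn, Aspn, Lum, Ecm2, Omd and Podn, with overlap between neighbours from Dcn to Prelp and from Ogn to Lum. The ratio of Fmod to Dcn was 0.618 to 1.09 in old and 0.364 to 0.593 in young libraries. The length behind the RPKM of Dcn was 2084 bases, where merged exons in GENCODE M21 cover 5838. The same reads divided by the longer length would give means of 306 in old and 163 RPKM in young animals, below both Fmod and Prelp. Reads from the added bases are not in these counts, so the rank of Dcn at that length is unknown. All members together took 0.381% to 0.846% of the reads in old and 0.289% to 0.364% in young libraries.

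Most members lie in 3 clusters of the genome. Dcn and Lum are neighbours on chromosome 10 (47.0 kb apart), followed by Kera and Epyc. Ecm2, Aspn, Omd and Ogn follow each other on chromosome 13 with gaps of 11.7, 14.9 and 15.2 kb, inside the span of Cenpp on the opposite strand. Prelp and Fmod lie 116 kb apart on chromosome 1, beside Optc. Within each cluster the log2 fold changes differed: 0.86 for Dcn, -0.44 for Lum and 1.55 for Kera on chromosome 10, 0.08 for Ecm2, 0.64 for Aspn and 0.73 for Ogn on chromosome 13, and 0.51 for Prelp and 1.77 for Fmod on chromosome 1. The difference between neighbours was not tested. Cenpp stood at 1.53 ± 0.202 RPKM in old and 2.75 ± 1.07 in young animals (SD, n = 4), and it shares 7 exon bases with Aspn and 0 with Ecm2, Omd or Ogn. Of the 45 pairs of members, 3 shared any stretch of 31 bases between their transcripts, with at most 3 such stretches in a pair.

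**Figure D3:**
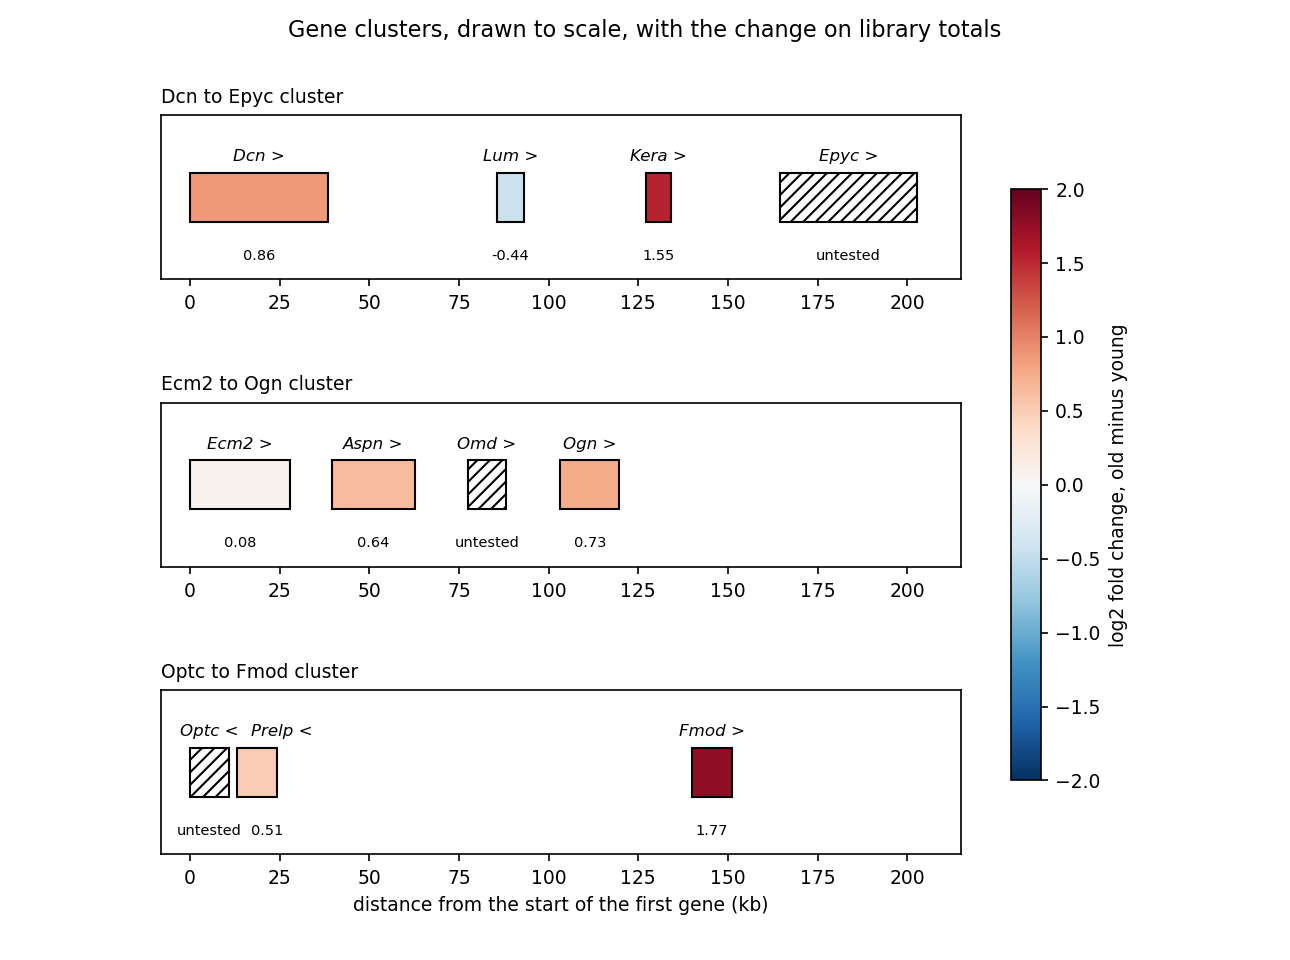
The 3 gene clusters drawn to scale as distance in kb from the first gene, coloured by log2 fold change (old minus young, library totals), with the value beneath each gene, > or < for the strand and hatching for genes below the filter. Neighbours differ, as Dcn (0.86), Lum (-0.44) and Kera (1.55) do.

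Of 8 other genes of this protein family, 2 passed the filter and both rose. Keratocan, Kera, known from cornea and tendon, rose by 1.55 ± 0.31 to 58.4 ± 30.4 RPKM in old from 18.3 ± 5.81 in young animals (limma, adjusted p = 0.00519). Chondroadherin, Chad, a collagen-binding protein of cartilage and tendon, rose by 1.49 ± 0.26 to 155 ± 64.7 from 51.2 ± 7.63 RPKM (adjusted p = 0.00317). Epyc, Optc, Chadl, Nyx and Podnl1 had means below 1 RPKM in both groups, and Tsku had 1.03 ± 0.321 in old and 1.12 ± 0.0941 RPKM in young animals.

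Genes for the linker and for chondroitin and dermatan sulfate chains numbered 23, of which 5 were tested, with 1 higher, 0 lower and 4 not called (median 0.01), while as deposited all 5 were higher (median 0.59). The gene called higher was Dse, the epimerase that makes dermatan sulfate, at 7.14 ± 1.32 RPKM in old and 4.36 ± 1.09 in young animals (0.61 ± 0.18, limma adjusted p = 0.0273). Dse passed the filter only through the old libraries. Some untested genes of this list, at low RPKM, had old values below all young ones on library totals, and none had the reverse. Dse lost its call with the replicate block (0.0640) and without young library 1, 3 or 4 or old library 1 or 4 (adjusted p = 0.0691 to 0.0767). Of 11 keratan sulfate genes 2 were tested, both sialyltransferases, and St3gal1 rose by 1.03 ± 0.13 while St3gal2 fell as a share of reads by 0.61 ± 0.15. The B3gnt, B4galt and Chst genes of that list did not pass the filter. In the supply of sugar and sulfate donors, 9 of 12 were tested, with 1 higher, 1 lower and 7 not called (6 higher and 0 lower as deposited). Ugdh, which makes the UDP-glucuronic acid of these chains, rose by 0.87 ± 0.18 to 48.8 ± 8.54 from 26.5 ± 5.97 RPKM (adjusted p = 0.00645), and Papss1, which makes the sulfate donor, fell as a share of reads by 0.71 ± 0.17. St3gal2 and Papss1 were not called as deposited (limma, adjusted p = 0.997 and 0.795).

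Collagens are the main binding partners of the family, and none of the tested genes was called higher on library totals. Of 16 fibrillar and associated collagen genes, 6 were tested, with 0 higher, 3 lower and 3 not called on library totals (median -0.91). As deposited 1 was higher and 2 were lower (median -0.24). The higher one was Col5a2, at 0.55 as deposited (limma, adjusted p = 0.0131) and -0.12 on library totals. Col3a1 and Col1a1 fell by 1.75 ± 0.16 and 1.71 ± 0.40 (limma, adjusted p = 0.000204 and 0.0111), and both were also lower as deposited (-1.07 and -1.04). Col6a1 fell as a share of reads by 0.99 ± 0.17 and was not called as deposited (-0.30, adjusted p = 0.224). Col1a1 stood at 22.5 ± 15.4 RPKM in old and 65.7 ± 18.9 in young animals (SD, n = 4).

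Among growth factors and other soluble partners 9 of 17 in the table were tested, with 1 higher, 2 lower and 6 not called (6 higher and 1 lower as deposited). Ccn2, a matricellular growth factor partner, rose by 0.81 ± 0.25 (limma, adjusted p = 0.0354). Its call was lost in 7 of 19 alternatives, among them without young library 1 or 3 or old library 1, 2 or 4 (adjusted p = 0.0636 to 0.0898). Igf1 fell by 1.13 ± 0.19 (adjusted p = 0.00251), and Tgfb3 fell as a share of reads by 0.57 ± 0.17 but stood at 0.10 as deposited, and it lost its call without young library 1, 3 or 4 or old library 2 or 4 (adjusted p = 0.0614 to 0.0786). Of 25 receptors and surface partners 14 were tested, with 0 higher, 2 lower and 12 not called, against 10 higher and 1 lower as deposited. These 2 were Dag1, or dystroglycan (-1.47 ± 0.18, adjusted p = 0.000542), and the sarcoglycan Sgca (-0.53 ± 0.15), which stood at 0.14 as deposited and lost its call without young library 1 or 4 or old library 4 (adjusted p = 0.0562 to 0.0611). Egfr, Met, Igf1r and Lrp1, receptors that decorin is known to bind, had log2 fold changes of 0.15, 0.28, 0.08 and -0.05 with no call, and all 4 were called higher as deposited (limma, adjusted p = 0.00173, 0.000198, 0.00176 and 0.0119).

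Of 18 proteases that can cut these proteins, with their inhibitors, 11 were tested, with 2 higher, 1 lower and 8 not called (9 higher and 0 lower as deposited). Mmp3 rose by 2.54 ± 0.29 to 101 ± 38.9 from 15.7 ± 4.75 RPKM and the inhibitor Timp1 by 0.96 ± 0.15 (limma, adjusted p = 0.000361 and 0.00208). Adamts5 fell as a share of reads by 0.48 ± 0.15 and stood at 0.10 as deposited, and leaving out young library 1, 2 or 3 or old library 1, 2 or 3 took its call (adjusted p = 0.0501 to 0.0984). Bmp1, which processes the propeptide of decorin and biglycan, had -0.32 with an adjusted p of 0.203. Of 14 larger matrix proteoglycans 4 were tested, and Prg4, the lubricin of joints and tendon, rose by 1.84 ± 0.29 and Spock3 by 0.78 ± 0.14 (adjusted p = 0.00208 and 0.00389).

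**Figure D4:**
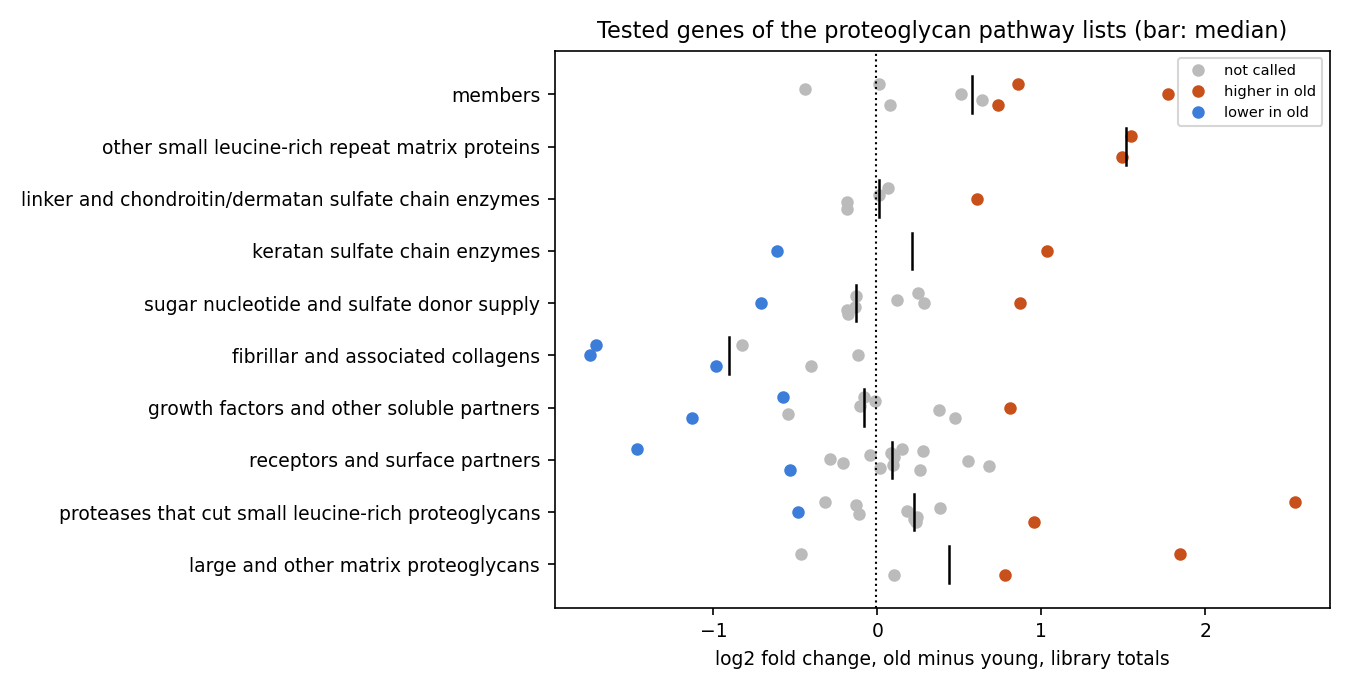
Log2 fold change (old minus young, library totals) of the tested genes in each list, with the list's median as a bar and the median of all tested genes as a dotted line. The 6 tested collagen genes lie at or below -0.12, and 7 of the 8 tested members lie above 0.

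Tenocyte markers, and to a lower correlation those of some other cell types, moved with Fmod and Dcn across libraries. Of 10 tenocyte markers 7 were tested and all 7 were called higher, with a median of 1.55 on library totals; Kera and Chad are among them. Angptl7 rose by 2.29 ± 0.39, Thbs4 by 2.12 ± 0.32 and Comp by 1.75 ± 0.33 (limma, adjusted p = 0.00265, 0.00157 and 0.00400). Scx, the tendon transcription factor, stood at 0.235 ± 0.110 RPKM in old and 0.461 ± 0.283 in young animals (SD, n = 4), from 23 and 10 reads in all. Cilp2 (0.793 ± 0.438 and 1.56 ± 0.593) and Col22a1 (0.133 ± 0.0635 and 1.23 ± 0.698) were also untested. Like Scx, both had the lower mean in old animals. The summed tenocyte markers reached 2654, 856, 1710 and 2156 CPM (reads scaled to the library total) in old libraries 1 to 4 and 350 to 513 CPM in young libraries. This is the order of the old libraries for Fmod and for Dcn, in which library 1 was highest, then 4, 3 and 2. The summed chondrocyte and bone markers had the same order, with 88.0, 43.9, 47.4 and 69.6 CPM in old libraries 1 to 4. That order is therefore not particular to tenocyte markers. Within an age (deviations from the group mean, 8 libraries, as a description), r with the tenocyte sum was 0.97 for Fmod, 0.90 for Dcn and 0.92 for Aspn. Sums of other cell types moved with these members too. For Fmod and Dcn r was 0.79 and 0.78 with pericyte, 0.78 and 0.69 with chondrocyte, and 0.67 and 0.71 with muscle fibre markers, and for Aspn it was 0.87 with pericyte and 0.90 with muscle fibre markers. With fibroblast markers it was 0.39 for Fmod and 0.66 for Dcn. Dcn also had 0.69 with leukocyte, 0.62 with endothelial and 0.60 with Schwann markers. Bgn and Prelp had 0.73 and 0.71 with fibroblast markers, against 0.12 and 0.40 with the tenocyte sum. With the sum of muscle stem cell markers r was -0.60 for Fmod, -0.60 for Dcn and -0.59 for Aspn. Over all tested members it ran from -0.60 (Dcn) to 0.34 (Bgn). The part of these markers in the results was not tested.

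**Figure D5:**
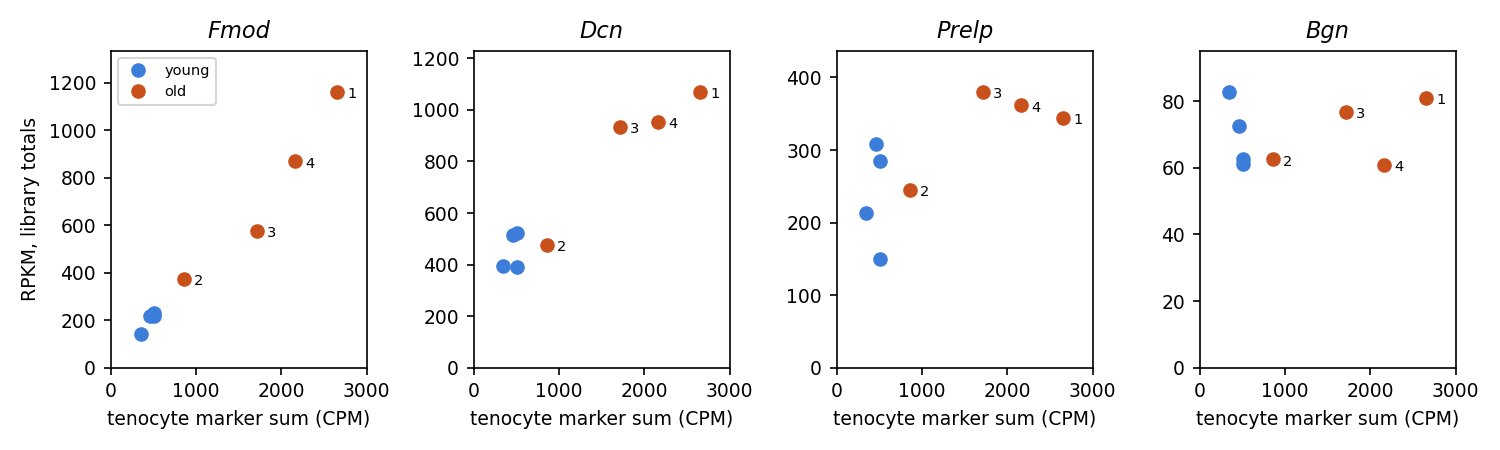
RPKM on library totals of Fmod, Dcn, Prelp and Bgn against the summed tenocyte markers in CPM, 1 point for each library, with old libraries numbered. For Fmod the old libraries run from 376 RPKM at 856 CPM to 1160 RPKM at 2654 CPM, while Bgn stays between 60.8 and 82.7 RPKM in all 8 libraries.

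The markers of fibroblasts and fibro-adipogenic progenitors, which also make these proteins, went both ways. Of 15 markers 9 were tested, with 2 higher (Fbln1 by 1.11 and Mfap4 by 1.00), 3 lower (Col15a1, Pdgfrl and Fbn1) and 4 not called. As deposited 2 were higher and 1 was lower, and Pdgfrl (-0.18) and Fbn1 (-0.15) were not called (limma, adjusted p = 0.466 and 0.422). Fbln1, at 4.62 ± 0.876 RPKM in young animals, passed the filter only through the old libraries. Mfap4 stood at 0.64 without old library 1, and it lost its call in 7 of 19 alternatives, among them without young library 1, 3 or 4 or old library 4 (limma, adjusted p = 0.0638 to 0.0990). Their sum was 3054 to 4864 CPM in old and 3998 to 5535 CPM in young libraries. This sum was mostly Gsn, with 309374 reads in old and 71616 in young libraries. The next marker, Dpt, had 9394 and 2111 reads. Old and young means were 2.26 and 3.89 RPKM for Pdgfra, and 15.6 and 21.2 RPKM for Ly6a (Sca1). The sums ran from 473 to 1087 CPM in old and from 873 to 1107 in young libraries for pericytes and smooth muscle, and from 190 to 457 and from 470 to 575 for endothelium. They ran from 30.2 to 78.7 CPM in old and 64.3 to 137 in young libraries for leukocytes, from 95.2 to 210 and 125 to 194 for Schwann cells, and from 146 to 738 and 381 to 724 for muscle fibres. Genes called lower on library totals were Acta2 (-0.77) and Notch3 (-0.53) among pericyte, Actn3 (-0.86) among muscle fibre and Sox9 (-1.07) among chondrocyte markers, and none of these 4 was called as deposited. Chondrocyte and bone markers had 43.9 to 88.0 and 97.7 to 178 CPM, and muscle stem cell markers 11226 to 14308 and 10378 to 13654 CPM. In the stem cell sum most reads were of Sdc4 (388229 in old and 80811 in young libraries) and Vcam1 (377384 and 42583). The sums of tenocyte, endothelial and chondrocyte markers each had p = 0.0286 (two-sided exact permutation test, 70 assignments of libraries), the smallest this design allows, and 0.0857 after Benjamini-Hochberg adjustment over the 9 lists. As deposited the same permutation test gave unadjusted p = 0.0286 for tenocyte, 0.8 for endothelial and 0.257 for chondrocyte markers.

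The members varied together within an age to different degrees. After the age group's mean was taken from log2(RPKM + 1), Pearson's r over the 8 libraries was above 0 in 26 of the 28 pairs of tested members, with a median of 0.48. It was highest for Dcn and Ecm2 (0.90) and lowest for Ogn and Prelp (-0.40). These values share libraries and their depth, and old libraries 1 and 2 carried the largest deviations (1.13 and -1.48 as the mean standardised deviation of the members). The 5 tested genes most like that mean profile were Tiparp (r = 0.97), Tnfaip3 (0.97), Rin2 (0.97), Camk2g (0.96) and Calhm5 (0.96). Of these, Calhm5 was called higher in old animals (1.48 ± 0.19, limma adjusted p = 0.000689) and the other 4 were not called. Calhm5, at 2.32 ± 0.331 RPKM in young animals, passed the filter only through the old libraries.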

How the data were processed

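The submitters' processing notes name STAR, Trim Galore, Subread, featureCounts and edgeR, and as builds GRCm38 and mm10. Their versions are not given here. Per the labels' protocols, cDNA was primed with oligo(dT). The authors deposited RPKM in 1 table. Its values are whole multiples of the worth of 1 read (largest distance 0.000248 from a whole number, allowed 0.03), with zeros replaced in 8293 genes, so reads and library totals were recovered. The recovery returned 100% of 23339 genes in simulated reads, up to a divisor common to all libraries of a gene. That divisor was checked only against annotated gene length, which was matched in 82.2% of 23162 genes. Among the members, Dcn, Lum, Ogn, Omd and Ecm2 did not match it. RPKM were rescaled to library totals and tested with limma-trend on log2(RPKM + 1) in R 4.3.3 and limma 3.58.1, a threshold of 0.05 and no covariate; the fit was tested on simulated data. Summed markers are CPM of library totals. Intervals cover counting error alone, since reads from amplified cDNA are not separate molecules.

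The members and 18 gene lists were chosen with earlier results of these data known. Genes other than the members were named by rule: per list, up to 3 called genes in each direction, largest change first, the 5 most like the members, and genes a result turned on. The receptors without a call and the untested relatives of the family fall outside that rule. So do Bmp1, Scx, Cilp2, Col22a1, Col5a2, Gsn, Dpt, Sdc4, Pdgfra, Ly6a, Pax7 and Cenpp. All of these were named after their values were seen. The alternatives were the deposited scaling, other filters and pseudocounts, limma-voom, thinned reads, a replicate block, no trend, and libraries left out. Same-numbered libraries come from different animals and were not treated as pairs in the main test. The replicate block did group them, though the labels state no pairing, so calls that change with it have no basis in the design. ERCC spike-in values are not analysed here.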

Additional observations from a re-analysis of the deposited data

Results flagged for a closer look

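In 4 of the 20 groups of 4 libraries looked at (10 members at 2 ages), 1 library stood apart from the other 3 by more of the group's range than Dixon's critical value at 95%, where chance does so in about 1 of 20. Young library 2 was high for Lum (76.5 RPKM, the next at 42.0) and for Omd (10.4 RPKM, the next at 2.71). Young library 4 was low for Fmod (143 RPKM, the next at 218). Old library 1 was high for Omd (5.71 RPKM, the next at 3.40). Young library 2 was the shallowest library, with 1909115 reads in genes.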

How the results depend on the processing

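As deposited, 3882 genes were called higher and 64 lower, and 7 members were called higher. The count of lower genes followed the filter, with 2476 at a mean of 1 RPKM, 386 at 10 RPKM and 8836 without a filter. With 1 library left out, 1 to 4 members were called higher, 480 to 806 of all genes higher and 492 to 811 lower. Lum stood at 0.24 as deposited. Bgn turned to -0.0015 with limma-voom, -0.15 without young libraries 1 and 2, and ran from -0.062 to 0.094 with 1 library left out; Ecm2 ran from -0.12 to 0.27. Reversed as deposited were Tgfb3 (0.10), Sgca (0.14), Adamts5 (0.10), the pericyte marker Notch3 (0.14), Tiparp (0.55), Tnfaip3 (0.43), Rin2 (0.38) and Camk2g (0.021), by the shift of the scaling; Tiparp ran from -0.30 to 0.11 with 1 library left out. As deposited the old to young ratio of summed markers was 6.36 for tenocyte, 1.36 for fibroblast, 1.23 for pericyte, 0.941 for endothelial and 0.845 for leukocyte markers. It was 1.51 for Schwann, 1.12 for muscle fibre, 0.831 for chondrocyte and 1.76 for muscle stem cell markers. With 1 library left out it ran from 3.43 to 4.74 for tenocyte, 0.659 to 0.869 for pericyte, 0.488 to 0.664 for endothelial, 0.818 to 1.09 for Schwann and 0.436 to 0.596 for chondrocyte markers; the cause was not tested. Over the 8 tested members, 127 values kept direction and side of the threshold, 11 lost a call, 6 gained one and 8 reversed. Over the other 42 named genes, 714 kept both, 63 lost a call, 1 gained one and 9 reversed; Notch3 lost its call in 11 of 19 alternatives.

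With the replicate number as a block, 637 genes were called higher, 662 lower and 4 members higher, Prelp being added (adjusted p = 0.0309). Deviations of same-numbered libraries correlated from -0.24 to 0.39, and 2 of the 8 libraries correlated best with their own number.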
